A study of Mus musculus with 73 samples.

Results

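Gnas and Nespas are overlapping imprinted transcripts of distal mouse chromosome 2, and they were taken here as the 2 rows of the deposited table that carry these names, out of 30546 genes. Gnas encodes Gαs, the α subunit of the G protein that couples hormone receptors to adenylyl cyclase and the production of cAMP. The locus is a textbook case of complex imprinting. Its most upstream promoter drives Nesp, a transcript for a secretory protein that is known to come from the maternal allele. Nespas is known as the paternally expressed antisense RNA that runs through the Nesp promoter. The Gαs promoter itself is active on both alleles in most tissues, with a maternal preference known in a few.

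RNA was read from epiblast, which forms the embryo proper, and from extraembryonic ectoderm (ExE), which contributes to the placenta, of single mouse embryos at E6.5. The study asked how silencing regulators keep imprints in these lineages. Wild-type (WT) BDF1xCAST embryos, with the mother named first, came from injection of CAST sperm into BDF1 oocytes and gave 7 epiblast and 7 ExE libraries, while CASTxBDF1 embryos came from natural mating and gave 4 and 4. BDF1 is a hybrid laboratory strain and CAST a wild-derived one, so reads over variants between them can be given to a parent. Because the direction of the cross goes with the way of fertilisation, these cannot be told apart. The 4 knockouts were all made in BDF1xCAST zygotes with Cas9 mRNA and several guides per gene, and the embryos were then carried by CD-1 foster mothers. Dnmt1, the maintenance DNA methyltransferase, had 3 epiblast and 3 ExE libraries. G9a-Glp, in which the histone methyltransferase genes Ehmt2 and Ehmt1 were targeted together, had 6 and 8. Rnf2, a ubiquitin ligase of Polycomb repressive complexes, had 6 and 5, and Eed, a subunit of the Polycomb complex that methylates histones, had 9 and 10. Each library is a separate embryo within its group, and libraries of the same embryo label in both tissues come from the same embryo. For Eed embryos 8, 9 and 10 the sample titles number the tissues otherwise than the embryo labels, which were followed, and the recorded sex of the tissues matches under these labels. No mutant genotype was read per cell, so an injected embryo may hold cells with different edits, which was not tested here.

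Libraries held 1141414 to 17653087 reads over strain variants, and libraries labelled Rnf2 epiblast were the deepest (5549733 to 17653087). Those labelled Rnf2 ExE held 1847681 to 10263280, against 2685835 to 3053690 in WT BDF1xCAST ExE. CPM are reads of a gene per 1000000 of these totals. The targeted transcript was set against WT BDF1xCAST of the same tissue. It was below every WT library in 3 of 3 Dnmt1, 9 of 9 Eed and 4 of 6 Rnf2 epiblast libraries. The same held in 10 of 10 Eed ExE libraries. In ExE this held for 2 of 3 Dnmt1 and 0 of 5 Rnf2 libraries, whose mean Rnf2 level was 77.4% of the WT mean. Either target of G9a-Glp was below every WT library in 7 of 8 ExE and 2 of 6 epiblast libraries, and mean Ehmt2 in epiblast equalled the WT mean. By a looser measure, it was not below the second-lowest WT library in 1 of 3 libraries labelled Dnmt1 ExE, 3 of 5 labelled Rnf2 ExE and 2 of 6 labelled G9a-Glp epiblast. Transcript level does not report a frameshift, and the genotype of these libraries was not tested. The epiblast marker Pou5f1 was near 0 in WT BDF1xCAST epiblast (at most 1.61 CPM), and Utf1, also listed as an epiblast marker, was higher in ExE (103 to 296) than in epiblast (42.7 to 158). Only reads over strain variants are counted, so a marker at or near 0 need not lack RNA, here and below. Fgf5 separated the tissues, at 289 to 574 CPM in epiblast and at most 1.08 in ExE, and the ExE marker Elf5 stood at 171 to 363 CPM in WT BDF1xCAST ExE. Hand1 and 3 of the 4 listed haemoglobin genes have no row in the table.

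In mm10 coordinates the Nespas row spans chr2:174281237-174295436 (14200 bases) and the Gnas row spans chr2:174284306-174346744 (62439 bases). They share 11131 bases, which is 78.4% of Nespas and 17.8% of Gnas. A further row, Gm30189, lies inside Gnas at chr2:174320908-174327388. Gnas collected 25034 reads over the 72 libraries and Nespas 1138. RefSeq (GRCm38.p6) places 4 Gnas start sites on the plus strand, of which the most upstream is that of Nesp, a pair 19 bases apart belongs to an alternative first exon, and the last is that of Gαs. The Gnas row spans all of them and gives no value per promoter. Whether Nesp reads entered it is not known, since the Nesp start lies in bases shared with Nespas. The sequences of 3 of these promoters, the 250 bases upstream of each start, are printed because the row spans promoters with opposite known imprints, and capitals mark CG dinucleotides, the letters that DNA methyltransferases modify.
Nesp (chr2:174284070-174284319, plus strand): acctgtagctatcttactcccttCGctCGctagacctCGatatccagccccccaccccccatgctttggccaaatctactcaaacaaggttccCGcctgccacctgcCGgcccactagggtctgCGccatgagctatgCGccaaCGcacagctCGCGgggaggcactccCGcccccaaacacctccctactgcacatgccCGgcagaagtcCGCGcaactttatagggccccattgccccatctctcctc
Alternative first exon (chr2:174327499-174327748, plus strand): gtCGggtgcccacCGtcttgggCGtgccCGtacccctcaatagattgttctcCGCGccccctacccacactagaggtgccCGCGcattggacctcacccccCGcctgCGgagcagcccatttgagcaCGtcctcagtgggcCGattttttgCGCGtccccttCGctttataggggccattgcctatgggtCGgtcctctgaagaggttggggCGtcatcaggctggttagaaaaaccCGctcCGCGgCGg
Gαs (chr2:174329756-174330005, plus strand): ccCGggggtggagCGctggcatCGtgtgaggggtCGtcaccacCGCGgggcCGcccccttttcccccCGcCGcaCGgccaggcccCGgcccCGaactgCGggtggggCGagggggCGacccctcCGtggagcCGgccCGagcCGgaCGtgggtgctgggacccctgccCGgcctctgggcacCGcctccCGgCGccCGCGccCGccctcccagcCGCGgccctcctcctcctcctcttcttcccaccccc
The Nesp window held 14 CG, the alternative exon 21 and the Gαs window 29. Among 32851 RefSeq windows of the same length, 29.4%, 16.3% and 6.78% held at least as many, and the median was 6. The Nesp window lies inside the Nespas row, while the others lie outside it. The hexamer TGCCGC, known as the core motif of the imprint-protecting zinc finger protein Zfp57, was searched on both strands and was in 0 of the 4 Gnas windows and in 8.68% of all windows.

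**Figure D1:**
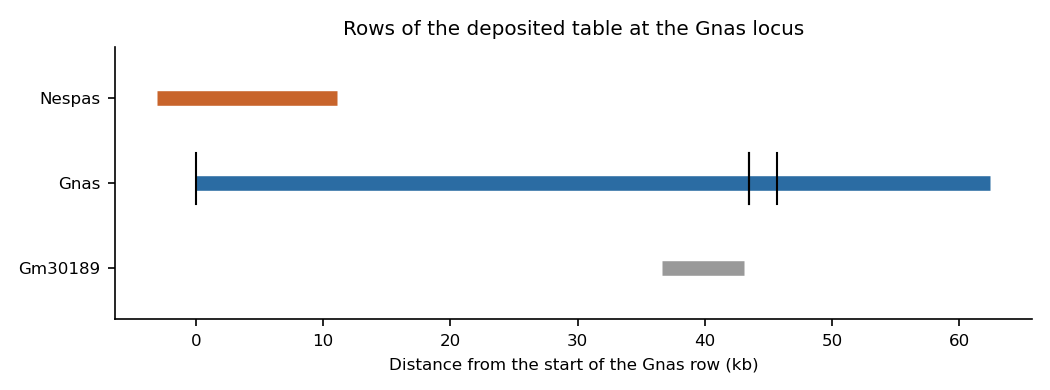
Rows of the deposited table at the locus, drawn to scale; the x axis gives the distance in kb from the start of the Gnas row, and vertical lines mark RefSeq start sites of Gnas. Nespas (14200 bases) covers the most upstream start, and Gm30189 lies between that start and the others.

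Reads of Gnas came from both alleles with a maternal excess in nearly every library. Of the 72 libraries, 71 held more maternal than paternal Gnas reads, with a range of 45.8% to 78.5% maternal and a median of 64.9%. In 62 of them the 95% Wilson interval lay wholly above 50%. Intervals cover counting error only, and cDNA reads without molecular identifiers are not independent molecules. In WT BDF1xCAST epiblast the maternal share ran from 58.8% through a median of 67.4% to 73.3%. The 4 CASTxBDF1 epiblast libraries were at 60.9%, 66.9%, 62.3% and 77.6%. In these 4 the 10 visceral endoderm markers summed to 6.15 to 2536 CPM (median 27.6), against 5.03 to 493.2 in WT BDF1xCAST epiblast. The part of these markers in the Gnas shares and levels was not tested. Because the mother is BDF1 in BDF1xCAST and CAST in CASTxBDF1, an excess in both crosses goes with the mother and not with a strain. The 6 decidua markers, listed for tissue of the mother, summed to 6.72 to 27.2 CPM in WT BDF1xCAST epiblast. In CASTxBDF1 epiblast they summed to 13.4 to 21.7 CPM. Their part in the excess was not tested. WT ExE gave much the same shares, 59.4% to 73.3% with a median of 67.4% in BDF1xCAST, and 62.0%, 64.6%, 65.1% and 62.5% in CASTxBDF1. All 22 WT libraries, 11 per tissue, were more maternal than paternal.

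Fitted over both crosses with edgeR's quasi-likelihood test, the log2 ratio of maternal to paternal Gnas reads was 1.06 in epiblast (SE 0.10, adjusted p = 8.19e-07), a 2.09-fold excess. In ExE it was 0.91 (SE 0.12, edgeR adjusted p = 5.84e-05), a 1.88-fold excess. Few genes pass this test, 0.319% of 8469 in epiblast (0.13% with a maternal excess) and 0.855% of 8654 in ExE (0.335% with a maternal excess). The size for Gnas is small beside the maternally expressed imprinted genes listed for comparison, such as H19 and Meg3, whose median was 5.40 in epiblast, with 6 of 7 tested called higher, and 7.17 in ExE, with 8 of 8. Listed paternally expressed genes had medians of -5.11, with 9 of 9 called lower, and -5.77, with 8 of 9. The medians of all genes tested were 0.0115 and 0.0057. A difference in the Gnas allelic ratio between WT tissues was not detected (log2 -0.15, SE 0.16, edgeR adjusted p = 1, with 0.317% of genes called). The chromosomal neighbours of Gnas, of which 7 of 11 listed were tested, had 0 parental calls in either tissue by edgeR at adjusted p under 0.05 (1 in ExE at an unadjusted p under 0.05).

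Nespas reads in WT epiblast were almost entirely maternal. In BDF1xCAST the maternal reads of embryos 1, 2, 3, 4, 6 and 7 were 12 of 12, 53 of 56, 13 of 14, 21 of 21, 7 of 8 and 14 of 16, and embryo 8 had no Nespas read, which allows up to 2.29 CPM. In CASTxBDF1 they were 16 of 16, 18 of 22, 25 of 25 and 67 of 70. Pooled, 246 of 260 reads were maternal (94.6%, 95% Wilson interval 91.2 to 96.8), and all 10 libraries with reads leaned to the mother. The fitted log2 ratio was 3.99 (SE 0.45, edgeR adjusted p = 1.21e-05), a 15.9-fold excess of the maternal allele. The antisense RNA Nespas is known for the opposite allele. Most of the row overlaps Gnas, whose upstream transcript Nesp is maternal, and the SMART-Seq and Nextera libraries named in the labels do not mark strand, so sense Nesp and antisense Nespas reads in this row cannot be told apart. The values below are therefore those of the row named Nespas.

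In WT ExE nearly all of the few reads of the Nespas row were paternal. BDF1xCAST embryos 1, 3 and 8 had 0 of 1, 1 of 1 and 0 of 3 maternal reads and the other 4 had none. CASTxBDF1 embryos 2, 3 and 4 had 0 of 3, 0 of 5 and 0 of 2, and embryo 1 had none. In all, 1 of 15 reads was maternal (6.67%, 95% Wilson interval 1.19 to 29.8), and 5 of 6 libraries with reads leaned to the father. In the 5 WT embryos with reads in both tissues, the maternal share was lower in ExE in 4, and the mean difference was -74.1 points (exact two-sided paired permutation p = 0.125, smallest possible 0.0625). The mean share was 16.7% over 6 ExE libraries and 94.0% over 10 epiblast libraries, and a permutation that treats tissues of the same embryo as independent gave p = 0.00275 (exact, two-sided). A paired test over 5 embryos cannot go below 0.05, and the difference rests on very few ExE reads. Too few ExE reads were present for the edgeR test of the allelic ratio.

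**Figure D2:**
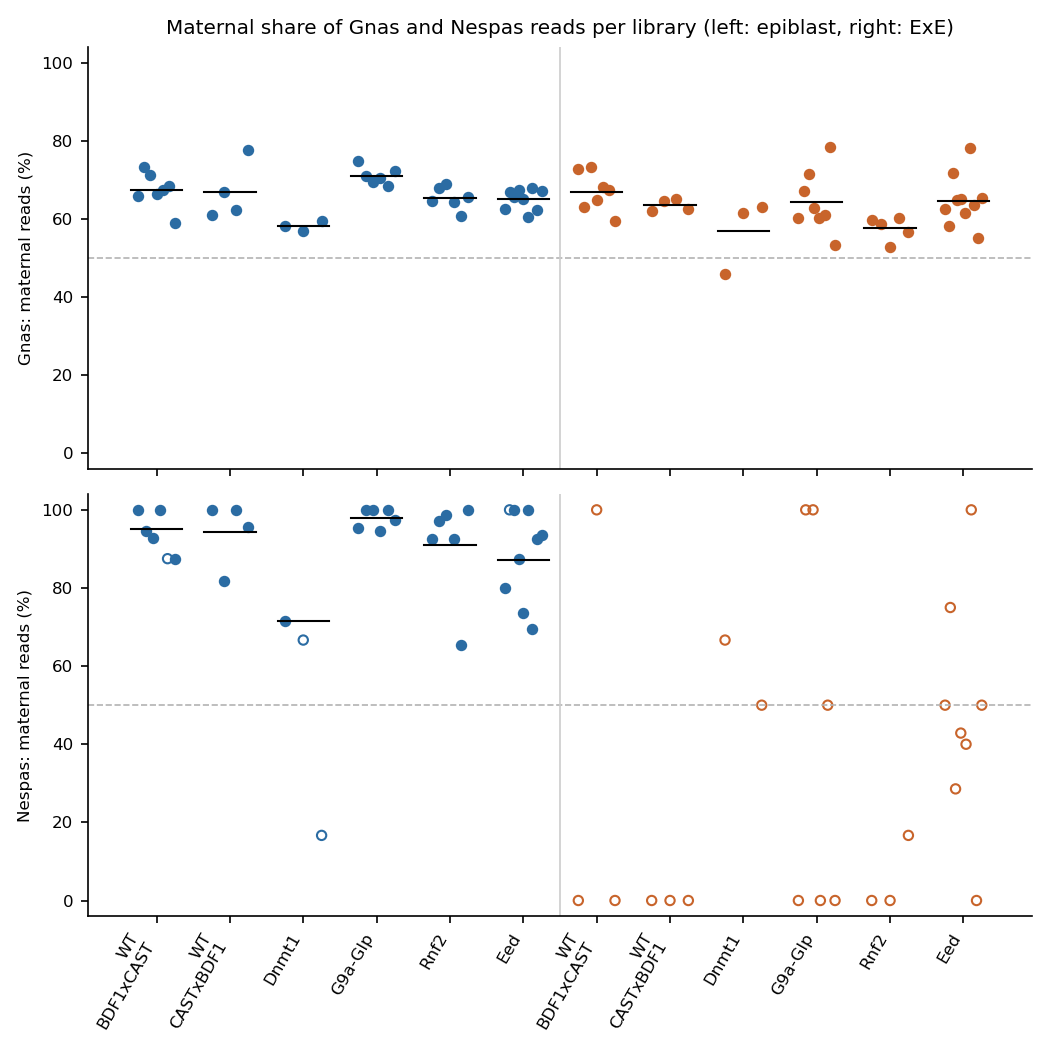
Maternal share (%) of Gnas reads (top) and Nespas reads (bottom) in each library, by group, with epiblast in blue on the left and ExE in orange on the right; open points are libraries with fewer than 10 reads, and horizontal bars are means over libraries with at least 10. Gnas lies between 45.8% and 78.5% throughout, while the Nespas row is near 100% in most epiblast libraries and mostly under 50% in WT ExE.

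Both rows were far lower in ExE than in epiblast. Gnas in WT epiblast was 168 ± 40.5 CPM (SD, n = 11, range 117 to 257) and in WT ExE 31.2 ± 17.2 CPM (SD, n = 11, range 15.1 to 68.1), so the ranges did not overlap. Within single WT embryos, the ExE level was 10.3% to 29.7% of the epiblast level in 7 BDF1xCAST pairs (median 14.4%). It was 11.5% to 26.6% in 4 CASTxBDF1 pairs (median 23.3%). The fitted log2 difference, ExE minus epiblast, was -2.47 (SE 0.19, edgeR adjusted p = 1.12e-11), in a comparison in which 66.1% of genes tested were called and 33.4% were lower in ExE. Nespas had 0 to 18.5 CPM in WT BDF1xCAST epiblast (median 5.81) and 0 to 1.07 in ExE (median 0). Its ExE level was too low for the filter of that test. Without a filter, its log2 difference was -4.34 (SE 0.51, edgeR adjusted p = 1.95e-10). In bulk tissue, fewer cells that express a gene and less RNA per cell cannot be told apart.

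Over the 12 groups, the mean Gnas level ran from 208 CPM in WT CASTxBDF1 epiblast through G9a-Glp (182), Eed (164), WT BDF1xCAST (145), Rnf2 (134) and Dnmt1 epiblast (87.9) to Rnf2 ExE (68.7). Below these stood Eed ExE (47.2), WT CASTxBDF1 ExE (45.0), G9a-Glp ExE (38.1), WT BDF1xCAST ExE (23.4) and Dnmt1 ExE (22.1). Each group overlapped in range with its neighbour in this order, including Dnmt1 epiblast and Rnf2 ExE. For the Nespas row the epiblast means ran from 12.5 CPM in CASTxBDF1 to 4.41 in Dnmt1, and the ExE means from 1.03 in Eed to 0.249 in WT BDF1xCAST. The only neighbours in that order without overlap were Dnmt1 epiblast and Eed ExE. Levels are not compared between the rows, because they differ in length and in the variants they hold. The direction of the cross gave no call for Gnas. Log2 CASTxBDF1 minus BDF1xCAST was 0.59 in epiblast (SE 0.18, edgeR adjusted p = 0.560, 0.0103% of genes called) and 0.92 in ExE (SE 0.31, edgeR adjusted p = 0.217, 1.06% called). Without WT BDF1xCAST ExE embryo 6 the ExE value was 1.15 and passed the threshold (edgeR adjusted p = 0.0420).

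**Figure D3:**
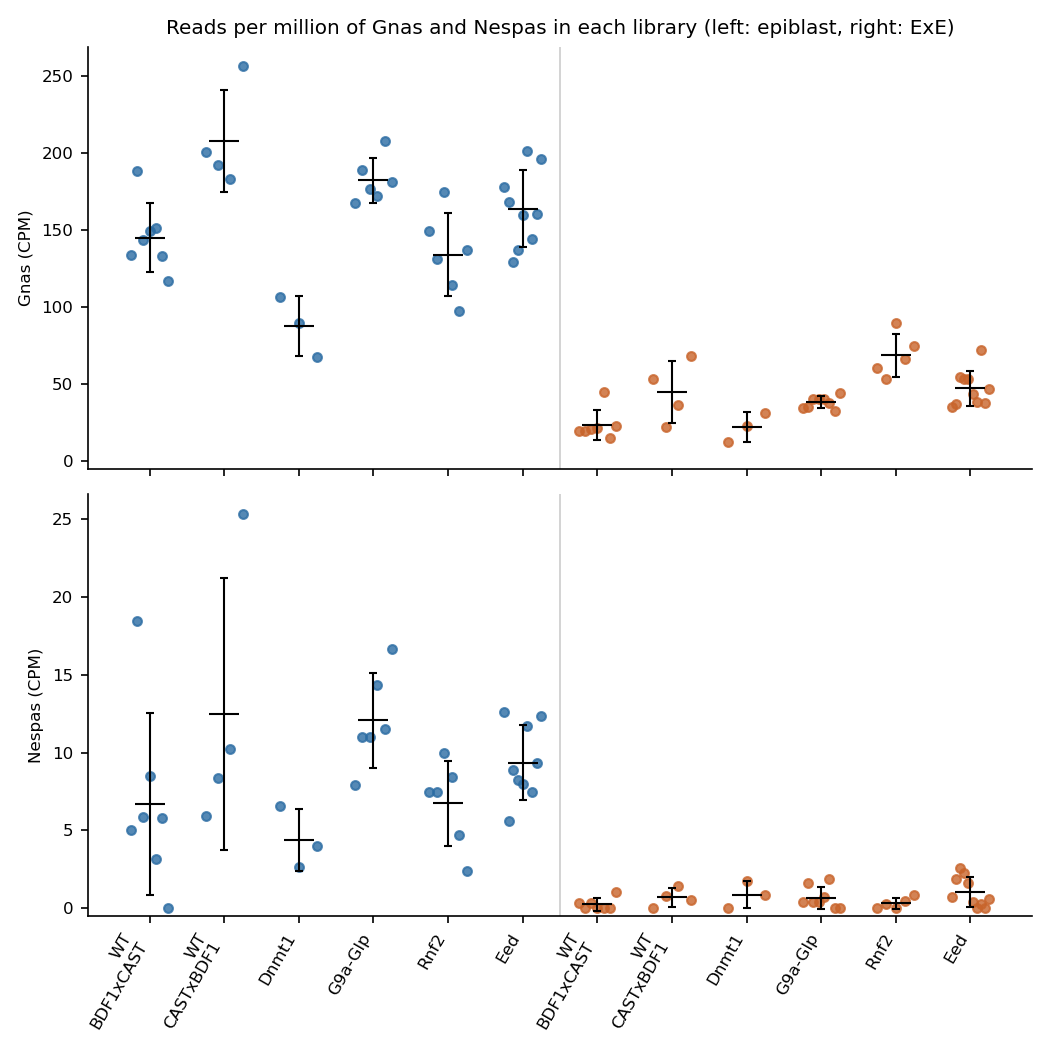
CPM of Gnas (top) and Nespas (bottom) in each library by group, epiblast on the left in blue and ExE on the right in orange; horizontal bars are means and error bars are 1 SD over libraries. The 3 Dnmt1 epiblast libraries lie below all WT BDF1xCAST epiblast libraries for Gnas, and the 5 Rnf2 ExE libraries lie above all WT BDF1xCAST ExE libraries.

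Of the 8 knockout comparisons, Dnmt1 in epiblast was the only 1 in which Gnas was called lower. The 3 Dnmt1 epiblast libraries had 106, 89.4 and 67.8 CPM, and the 7 WT BDF1xCAST libraries had 117 to 188 (median 143). All 3 were below every WT library, and their mean was 60.6% of the WT mean. Total Gnas reads changed by -0.95 on the log2 scale (SE 0.22, edgeR adjusted p = 0.0115), in a comparison with 14.1% of genes called and 7.16% called lower. The fall was called for the maternal reads, which had 61.9, 50.8 and 40.3 CPM against 68.6 to 138 in WT (median 99.3). Their log2 difference was -1.18 (SE 0.26, edgeR adjusted p = 0.0121, 5.86% of genes lower). Paternal reads had 44.5, 38.5 and 27.5 CPM against 41.1 to 50.2 in WT, with 2 of 3 below all WT libraries. Their log2 difference of -0.56 missed the threshold (SE 0.19, edgeR adjusted p = 0.0865, 5.4% lower). Without Dnmt1 epiblast library 3 the total was -0.83 with an edgeR adjusted p of 0.0707. Without library 2 or 3 the maternal call was lost as well (edgeR adjusted p = 0.0534 and 0.0749). Without WT library 8 the paternal value passed (log2 -0.58, edgeR adjusted p = 0.0383).

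The maternal share of Gnas in these 3 libraries was 58.1%, 56.9% and 59.4%, against 58.8% to 73.3% in WT. Of these, 2 lay below all WT libraries. The fitted change in log2 maternal to paternal ratio was -0.60 (SE 0.21, p = 0.0106, edgeR adjusted p = 0.325), which did not pass, with 0.866% of genes called. The mean share differed by -9.23 percentage points (exact two-sided permutation p = 0.0333, smallest possible 0.0167), not adjusted over the 11 such tests of knockout shares. In the same libraries the listed paternally expressed imprinted genes had 8 of 9 called more maternal, with a median log2 change of 4.93. The maternally expressed ones had 4 of 4 called less maternal, with a median of -4.59, against -0.01 over all genes tested. The change fitted for Gnas was far smaller than these medians, as was its WT ratio.

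The Nespas row kept few reads in Dnmt1 epiblast, with 10 of 14, 2 of 3 and 1 of 6 maternal. These are 71.4% (95% Wilson interval 45.4 to 88.3), 66.7% (20.8 to 93.9) and 16.7% (3.01 to 56.4), all below the lowest WT BDF1xCAST library with at least 3 reads, which was at 87.5%. Pooled, 13 of 23 reads were maternal (56.5%, 36.8 to 74.4). The row failed the filter of the edgeR allelic test, and with a minimum of 3 reads its log2 change was -3.68 (SE 1.09, p = 0.00284, edgeR adjusted p = 0.191). The mean share was 51.6% in 3 libraries against 93.8% in 6 WT libraries, a difference of -42.2 points. The exact two-sided permutation p was 0.0238, the smallest this design allows. It was not adjusted, and the test was added later. With a minimum of 10 reads only 1 Dnmt1 epiblast library remained, and no test was possible. Paternal reads of the row were at 0.876 to 3.35 CPM in the 3 libraries and 0 to 0.991 in the WT, and 2 of 3 lay above all WT libraries. Its total did not pass (log2 -0.84, SE 0.78, edgeR adjusted p = 0.526). These Dnmt1 libraries held 4410 to 6095 CPM summed over the 7 epiblast markers (WT BDF1xCAST 3153 to 5613). The 6 ExE markers in the table summed to 89.9 to 245 CPM (WT 27.1 to 227) and the 10 visceral endoderm markers to 35.9 to 198 (WT 5.03 to 493.2). Their part in the Gnas and Nespas values was not tested.

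In Dnmt1 ExE no change of Gnas was detected. Levels were 12.2, 22.8 and 31.4 CPM, inside or near the WT range of 15.1 to 45.0. The fitted log2 difference was -0.33 (SE 0.35, edgeR adjusted p = 0.564, 18.5% of genes called). Maternal shares were 45.8% (27.9 to 64.9, 24 reads), 61.5% and 63.0%. The allelic change was -0.53 (SE 0.35, edgeR adjusted p = 0.756, 0.856% called). The library at 45.8% is the 1 whose Dnmt1 level did not bear out its label, and without it the allelic change was -0.30 and the total change -0.049. The mean share differed by -10.2 points (exact permutation p = 0.1). The listed imprinted genes in these libraries had 7 of 8 paternally expressed genes more maternal and 5 of 6 maternally expressed genes less maternal. A difference of the Dnmt1 effect between tissues was not detected for Gnas totals (log2 0.66, SE 0.40, edgeR adjusted p = 0.649, 0.247% called). The Nespas row had 3 of 5 maternal reads there.

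Rnf2 had the highest mean Gnas level of the ExE groups. The 5 libraries labelled Rnf2 ExE had 60.4, 53.1, 89.3, 66.3 and 74.6 CPM, against 15.1 to 45.0 in 7 WT BDF1xCAST ExE libraries (median 20.6). All 5 lay above each of these 7. The 4 WT CASTxBDF1 ExE libraries, not used in this comparison, ran from 22.0 to 68.1 CPM. The Rnf2 mean was 294% of the WT BDF1xCAST mean. Gnas rose by 1.50 on the log2 scale (SE 0.22, edgeR adjusted p = 0.000285), in a comparison with 22.2% of genes called and 12.2% called higher. The ExE level was 46.1%, 78.1% and 67.8% of the epiblast level in the 3 embryos with both tissues. In Rnf2 epiblast the levels ran from 97.7 through a median of 134 to 175 CPM. No change was called there (log2 -0.15, SE 0.17, edgeR adjusted p = 0.538, 31% of genes called). The difference of the Rnf2 effect between ExE and epiblast was 1.64 (SE 0.29, edgeR adjusted p = 0.000596), in a test with 6.82% of genes called and 2.03% higher. With the embryo as a block it was larger (1.996, edgeR adjusted p = 0.00335). For Rnf2 this blocked value rests on the same 3 embryos with both tissues, numbered 2, 5 and 6. Their ExE libraries are the 3 whose Rnf2 level was not below the second-lowest WT library. The difference between tissues was not refitted without them. The 2 libraries labelled Rnf2 ExE whose Rnf2 level was below the second-lowest WT library gave a log2 rise of 1.39 on their own (edgeR adjusted p = 0.0246).

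Both parental alleles of Gnas rose in these Rnf2 ExE libraries. Maternal Gnas reads were at 36.1, 31.2, 47.1, 39.9 and 42.3 CPM against 10.2 to 30.7 in the WT (median 13.8). Paternal reads were at 24.4, 21.9, 42.2, 26.4 and 32.3 CPM against 4.94 to 14.3 (median 7.17). On both alleles all 5 libraries exceeded every WT BDF1xCAST library. The maternal rise was 1.27 (SE 0.23, edgeR adjusted p = 0.00164, 9.36% of genes higher) and the paternal rise 1.86 (SE 0.26, edgeR adjusted p = 0.00023, 9.88% higher). The maternal value was 1.17 without the 3 doubted libraries, and no longer passed (edgeR adjusted p = 0.0744). Shares were 59.7%, 58.7%, 52.7%, 60.2% and 56.7% maternal against 59.4% to 73.3% in the WT, with 3 of 5 below all WT libraries. The allelic change of -0.57 did not pass over all genes (SE 0.19, p = 0.00646, edgeR adjusted p = 0.204, 0.911% called). The mean share differed by -9.39 points (exact two-sided permutation p = 0.00758, smallest possible 0.00253, unadjusted). Listed paternally expressed genes had 2 of 9 called more maternal and listed maternally expressed genes 5 of 8 called less maternal in these libraries.

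The Nespas row in Rnf2 ExE had 0 of 3, 0 of 4 and 1 of 6 maternal reads in the 3 libraries with reads, 1 of 13 in all, so 12 were paternal. Its level of 0 to 0.857 CPM was within the WT BDF1xCAST range of 0 to 1.07, which rests on 5 reads. Without a filter, its log2 difference was 0.38 (SE 1.09, edgeR adjusted p = 0.836). Gnas was higher in every one of these libraries, and reads of the Nespas row are too few to tell whether it rose too. In Rnf2 epiblast the row was maternal, with 122 of 132, 71 of 73, 80 of 81, 62 of 67, 17 of 26 and 17 of 17 reads. The fifth of these, embryo 6, stood apart at 65.4% (46.2 to 80.6). No change of the Nespas ratio was detected there (log2 -0.25, SE 1.00, edgeR adjusted p = 0.981, 0.686% of genes called), nor of the Gnas ratio (-0.15, SE 0.14, edgeR adjusted p = 0.850).

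Gnas also rose in Eed ExE. The 10 Eed ExE libraries ran from 35.0 through a median of 45.4 to 71.9 CPM, and 5 of them lay above all WT BDF1xCAST ExE libraries. WT BDF1xCAST embryo 6, at 45.0 CPM, was the only library of that group that any of the 10 failed to exceed. The next of that group stood at 22.9. The 4 WT CASTxBDF1 ExE libraries, not used in this comparison, ran from 22.0 to 68.1 CPM with a mean of 45.0. The Eed mean was 202% of the WT BDF1xCAST mean. The log2 rise was 0.86 (SE 0.21, edgeR adjusted p = 0.00246, 40.8% of genes called and 22.7% higher). Maternal reads rose by 0.82 (SE 0.23, edgeR adjusted p = 0.00773, 17.6% of genes higher) and paternal reads by 0.94 (SE 0.24, edgeR adjusted p = 0.00482, 17.3% higher). The share, 55.2% to 78.2% with a median of 64.2%, overlapped the WT, and the allelic change was -0.13 (SE 0.21, edgeR adjusted p = 0.877, 2.65% called). In Eed epiblast neither the level (129 to 201 CPM, median 161, log2 0.01, SE 0.13, edgeR adjusted p = 0.966, 35.7% called) nor the ratio (log2 -0.19, SE 0.13, edgeR adjusted p = 0.713, 1.06% called) changed detectably. The difference of the Eed effect between tissues was 0.89 (SE 0.25, edgeR adjusted p = 0.0112, 15.9% called and 9.29% higher), and 0.93 with the embryo as a block (edgeR adjusted p = 0.0152).

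For the Nespas row, Eed ExE held 29 reads in 8 of 10 libraries, of which 13 were maternal (44.8%, 28.4 to 62.5). The 4 libraries with at least 4 reads had 3 of 4, 2 of 7, 3 of 7 and 2 of 5 maternal reads. The 3 WT ExE libraries with at least 3 reads had no maternal read. Only 1 of these was BDF1xCAST, and the difference in share was not tested. Its total level, 0 to 2.58 CPM, gave a log2 difference of 1.66 without a filter (SE 0.88, edgeR adjusted p = 0.163). In Eed epiblast the row had 187 of 210 maternal reads (89.0%, 84.1 to 92.6), with single libraries from 69.6% to 100% (median 92.6%). Its ratio was not called there (log2 -0.90, SE 0.83, edgeR adjusted p = 0.825).

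G9a-Glp gave the smallest called rise of Gnas in ExE. The 8 libraries ran from 32.4 through a median of 39.0 to 44.3 CPM, above 6 of the 7 WT BDF1xCAST libraries and below embryo 6 of that group. This range lay inside that of the 4 WT CASTxBDF1 ExE libraries (22.0 to 68.1 CPM), which were not used in this comparison. The G9a-Glp mean was 163% of the WT BDF1xCAST mean. The log2 rise was 0.64 (SE 0.20, edgeR adjusted p = 0.0319, 15.2% of genes called and 8.5% higher). The call was lost when any 1 of WT libraries 1, 2, 3, 4 or 7 or G9a-Glp libraries 3, 4 or 10 was left out (8 of 15 such fits, highest adjusted p 0.0675), and without WT library 6 the rise was 0.88 (edgeR adjusted p = 0.000464). Maternal (0.58, SE 0.21, edgeR adjusted p = 0.0730, 6.86% of genes higher) and paternal reads (0.76, SE 0.26, edgeR adjusted p = 0.0633, 6.36% higher) did not pass on their own. Maternal shares ran from 53.4% through 61.9% to 78.5%, and the allelic change was -0.17 (SE 0.25, edgeR adjusted p = 0.921, 1.11% called). The Nespas row had 5 of 12 maternal reads in 6 libraries. A difference of the G9a-Glp effect between tissues was not called (0.46, SE 0.23, edgeR adjusted p = 0.235, 6.83% of genes called).

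In G9a-Glp epiblast no change of either row was called. Gnas ran from 167 through 179 to 208 CPM (log2 0.24, SE 0.13, edgeR adjusted p = 0.179, 34.6% of genes called). Its share ran from 68.4% through 70.7% to 74.8% (log2 ratio 0.21, SE 0.14, edgeR adjusted p = 0.639, 1.79% called). The Nespas row was maternal in 20 of 21, 18 of 18, 27 of 27, 35 of 37, 33 of 33 and 38 of 39 reads. Its level of 7.90 to 16.7 CPM (median 11.3) was not called against the WT (log2 0.68, SE 0.46, edgeR adjusted p = 0.267). Of 13 fits that each left out 1 library, only the fit without WT epiblast embryo 2, with 56 Nespas reads, passed. Its rise was 1.19 (edgeR adjusted p = 0.0316).

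**Figure D4:**
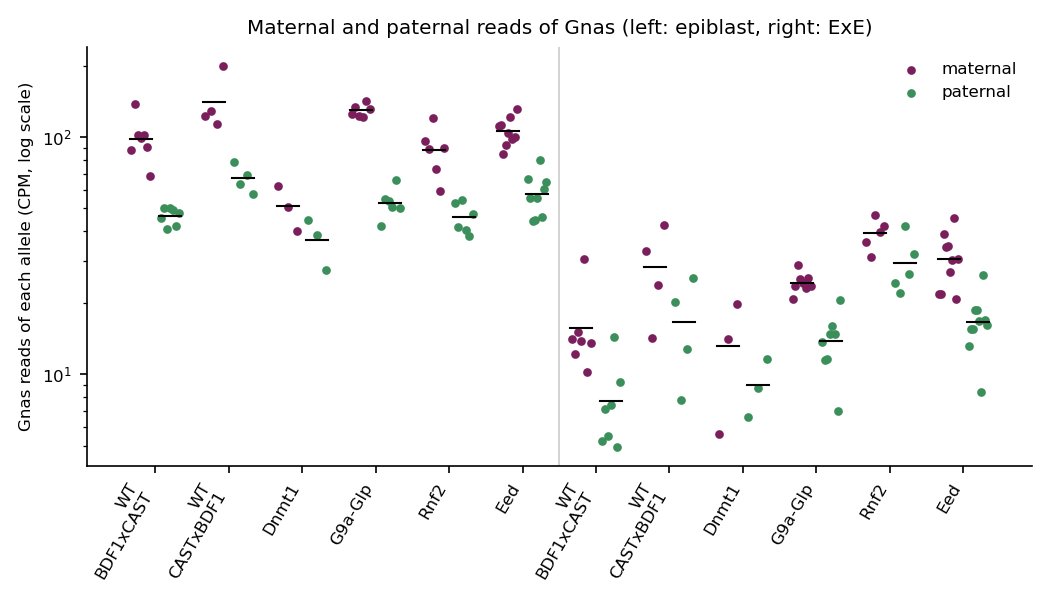
Gnas CPM from the maternal (purple) and paternal (green) allele in each library on a log scale, by group, with bars at the mean; epiblast is on the left and ExE on the right. In Rnf2 and Eed ExE both alleles sit above the WT BDF1xCAST ExE means. In Dnmt1 epiblast, 3 of 3 maternal and 2 of 3 paternal values lie below all WT BDF1xCAST epiblast libraries, and the change in ratio was not called.

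**Figure D5:**
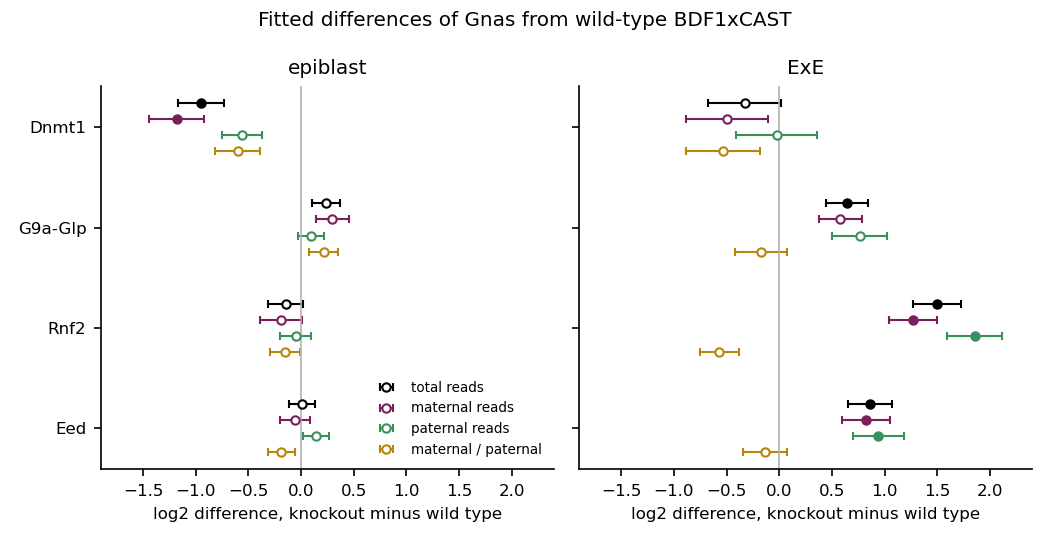
Fitted log2 differences of Gnas, knockout minus WT BDF1xCAST, for total, maternal and paternal reads and for the maternal to paternal ratio, with 1 SE on each side; filled points passed an edgeR adjusted p of 0.05. Total reads passed in Dnmt1 epiblast (-0.95) and in G9a-Glp (0.64), Rnf2 (1.50) and Eed ExE (0.86), and the ratio passed in none of the 8 comparisons.

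Across the 8 knockout comparisons, total Gnas reads passed the test in 4 and the Gnas allelic ratio in 0 (2 had an unadjusted p under 0.05, Dnmt1 epiblast and Rnf2 ExE, and limma on log ratios also called 0). The change in Gnas ratio was not shown to differ between tissues in any knockout by edgeR. The difference was 0.09 in Dnmt1 (0% of genes called), -0.40 in G9a-Glp (0.311%), -0.42 in Rnf2 (0.262%) and 0.05 in Eed (0.865%), with 0 of 4 at an unadjusted p under 0.05. The 4 comparisons of each tissue share their WT libraries. Among those, WT ExE embryo 6 was the highest in Gnas, and without it the rises were 1.72 in Rnf2, 1.08 in Eed and 0.88 in G9a-Glp ExE. The ExE libraries with higher Gnas were also read for other cell types. The 7 epiblast markers, a tissue with far more Gnas, summed to 655 to 1005 CPM in Rnf2 ExE, 483 to 961 in Eed ExE and 752 to 1190 in G9a-Glp ExE, against 731 to 1216 in WT BDF1xCAST ExE. Most of these sums is Dnmt3b, and single members went both ways. Utf1 was at 359 to 550 CPM in Rnf2, 333 to 605 in Eed and 323 to 642 in G9a-Glp ExE, above every WT BDF1xCAST ExE library (103 to 296). Fgf5 reached 2.43 CPM in Rnf2, 8.53 in Eed and 17.1 in G9a-Glp, against 1.08 in the WT. In G9a-Glp ExE, Nanog reached 33.8 CPM and Tdgf1 26.9, against 7.67 and 6.67 in the WT. The 6 ExE markers summed to 487 to 1062, 299 to 611 and 562 to 972, against 561 to 1030. The 10 visceral endoderm markers summed to 22.4 to 49.6 in Rnf2, 38.7 to 77.5 in Eed and 20.3 to 139 in G9a-Glp, against 12.8 to 27.5 in the WT. Of these, Ttr was at most 0.982 CPM in WT, 0.408 in Rnf2, 0.786 in Eed and 1.09 in G9a-Glp ExE. Amn was at 17.1 to 29.9 CPM in Rnf2 and 15.7 to 55.4 in Eed, against 5.92 to 15.7 in the WT, Rbp4 at 8.99 to 23.3 in Eed against 3.43 to 9.29, and Afp at 12.9 to 112 in G9a-Glp against 0.333 to 6.79. The 6 decidua markers summed to 6.49 to 12.6, 10.2 to 49.7 and 1.37 to 11.97, against 3.22 to 10.5. Dcn and Col3a1 were at 0 in WT, Rnf2 and Eed ExE, whereas Des was at 2.44 to 7.34 CPM in Rnf2 and 1.71 to 11.4 in Eed against at most 0.687 in the WT, and Cryab reached 37.5 in Eed against 10.5. The 2 blood markers in the table summed to at most 0.667 CPM in WT BDF1xCAST ExE, 0.102 in Rnf2, 0 in G9a-Glp and 5.48 in Eed ExE. The part of epiblast, visceral endoderm, decidua and blood markers in the Gnas rise was not tested.

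The allelic values of Gnas were also computed with Nespas reads taken out, as if all of them had been counted in both rows. The Nespas row equalled at most 9.87% of the Gnas reads of any library. Where its reads were subtracted, the mean maternal share became 66.2% in WT BDF1xCAST epiblast and 58.6% in Dnmt1 epiblast, from 67.4% and 58.1%. In Rnf2 ExE it became 57.9% from 57.6%, and in WT BDF1xCAST ExE 67.5% from 67.0%. The direction and the side of the threshold of the 11 Gnas allelic fits were the same after subtraction, while total levels were not refitted. How counting treated the bases that both rows cover is not given in the sources used here.

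The partners of Gαs in cAMP signalling were examined as a list of 35 genes, of which 32 are in the table. In WT tissues 18 were tested, and 5 were higher and 9 lower in ExE, where 66.1% of all genes were called. The median log2 difference was -0.52 against -0.01 for all genes. Lower with Gnas were Pde4b (-6.55), a phosphodiesterase that degrades cAMP, Prkar2b (-4.40), a regulatory subunit of protein kinase A, Adcy6 (-2.64), an adenylyl cyclase, and Creb1 (-1.51), the cAMP response factor. Higher were Gng12 (2.397), a G protein γ subunit, and Prkar2a (2.04), another regulatory subunit of protein kinase A. In Dnmt1 epiblast 2 of 20 tested were called, against 14.1% of all genes. These were Gng5 (-2.13), a γ subunit, and Prkar1a (0.89), a regulatory subunit of protein kinase A. Rnf2 ExE had 1 call among 16, against 22.2% of all genes, the β subunit gene Gnb2 (1.57). Eed ExE had 8 of 22 higher and 1 lower, where 40.8% of all genes were called and 22.7% were higher. The median was 0.35 against 0.02 for all genes, and the largest rises were those of Pde8a (4.65), a phosphodiesterase, and Prkar2b (3.78). In G9a-Glp ExE 3 of 15 were called, against 15.2% of all genes. These were Gnb2 (1.16), Prkar1a (0.44) and the adenylyl cyclase gene Adcy3 (-1.41). Gnb2 was higher in each of the 3 ExE comparisons in which Gnas rose, and it was also higher in Dnmt1 ExE (1.36), where Gnas was not called. The parental term was called for 0 of 18 listed genes tested in epiblast and 0 of 15 in ExE by edgeR (2 in epiblast and 0 in ExE at an unadjusted p under 0.05).

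The neighbours of Gnas on chromosome 2 gave no call for total reads in these ExE comparisons. Of 7 tested, 0 had a change in total reads in Rnf2, Eed or G9a-Glp ExE by edgeR at adjusted p under 0.05 (1 in G9a-Glp at an unadjusted p under 0.05), where 22.2%, 40.8% and 15.2% of all genes were called. In Dnmt1 epiblast, where Gnas fell, 1 of 7 was called, a share near the 14.1% of all genes. It was the ATP synthase subunit gene Atp5e (-0.91), which was also lower in Dnmt1 ExE (-1.06). The allelic ratio of Atp5e was called in Eed ExE (-0.29, with 2.65% of all genes called) and in Rnf2 ExE (-0.28, with 0.911% called). In epiblast, Ctsz, which encodes cathepsin Z, rose in G9a-Glp (0.80), Rnf2 (0.87) and Eed (0.57), and Stx16, which encodes a syntaxin of the Golgi, rose in G9a-Glp (1.06), Rnf2 (0.82) and Eed (1.15). Of all genes, 34.6%, 31% and 35.7% were called in these comparisons, and Gnas was not. In WT ExE, Ctsz (1.16) and Slmo2 (1.15) were higher than in epiblast, opposite to Gnas.

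Genes whose pattern was most like that of Gnas were found by Pearson correlation, as a description. Over the pooled maternal shares of the 12 groups, among 8108 genes, the nearest were 3110001I22Rik (r = 0.80), Rian (0.80) and Mirg (0.79), of which Rian and Mirg are maternally expressed non-coding RNAs of one imprinted cluster. Over log2(CPM + 1) in 72 libraries, among 7704 genes, they were Zfp422 (0.91), Prkra (0.90) and Gli2 (0.89). The libraries of a group share tissue and depth, and tissue sets much of the second measure. Nespas had too few reads for either measure.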

How the data were processed

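RNA of single E6.5 epiblasts and ExE was made into cDNA and sequenced, and 72 libraries were analysed. A bisulfite sample was not analysed here. Per the submitters' processing notes, STAR 2.5.0, HTSeq and the mm10 build were used; whether counting used strand is not given in the sources used here. Per the file headers, the authors deposited for each gene and library the count of reads over strain variants, with both alleles summed and no scaling. The deposited allelic ratio is the authors' rounded CAST share less 0.5. The deposited allelic score was computed by the authors as a signed −log10 binomial p-value. Allele counts were recovered here as the whole numbers that fit ratio and score. They matched the score in 711938 of 712002 scored values (99.991%), and in all 102 scored values of the members. Values under 10 reads carry no score, and their counts come from the ratio alone. Every column was mapped, with 0 unused.

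The change in allelic ratio was tested with edgeR 4.0.16 (R 4.3.3) on maternal and paternal counts with a term per library, keeping autosomal genes that reached 10 reads in 3 or more libraries on both sides. Totals and single alleles used edgeR's quasi-likelihood test with TMM scaling after filterByExpr, and single alleles used the totals' library sizes. All tests were two-sided, with Benjamini-Hochberg adjustment over all genes tested and a threshold of 0.05. Knockouts were compared with WT BDF1xCAST of the same tissue, and crosses and tissues within the WT. Alternatives included DESeq2 1.42.0 and limma 3.58.1 (0.5 added to each allele count). The scripts were tested on simulated data. Intervals are 95% Wilson, and a count of 0 allows up to 3 reads.

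The members and the lists (cAMP signalling, neighbours, imprinted genes, cell type markers) were chosen with earlier results of these data known. The genes most like Gnas were the 3 with the highest correlation, from genes with at least 20 pooled reads in each group, or a mean of at least 10 CPM. Other genes are named from the lists. Gm30189 was chosen after its values were seen. Embryo numbers pair tissues of the same embryo per the labels; deviations of the tissues correlated at over 0.1 in 6 of 7 WT BDF1xCAST, 3 of 4 CASTxBDF1, 1 of 3 Dnmt1, 2 of 5 G9a-Glp, 2 of 3 Rnf2 and 5 of 9 Eed embryos (-0.53 to 0.34 in Eed). Knockout and WT embryos share only a number.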

Additional observations from a re-analysis of the deposited data

Results flagged for a closer look

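Gnas in WT BDF1xCAST ExE embryo 6 was at 45.0 CPM, and the next of the 7 libraries was at 22.9. In Eed ExE, embryo 8 was at 71.9 CPM for Gnas, and the next of the 10 was at 54.5. The Nespas row in Rnf2 epiblast embryo 6 was 65.4% maternal from 26 reads, and the next of the 6 libraries was at 92.4%. The Nespas level of WT BDF1xCAST ExE embryo 8 was 1.07 CPM from 3 reads, against at most 0.343 in the others. In these 4 cases the gap to the next library exceeded Dixon's 95% critical value for the group's range. In all, 35 groups of values were examined, and chance flags about 5% of them.

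The effect on total Gnas reads differed between tissues by a test of the difference itself, 1.64 higher in ExE than in epiblast on the log2 scale for Rnf2 (edgeR adjusted p = 0.000596) and 0.89 for Eed (edgeR adjusted p = 0.0112).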

How the results depend on the processing

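Over 64 results and 1011 alternatives, 955 kept direction and side of the threshold, 13 lost a call, 14 gained one and 29 changed sign. Of the results, 40 were the same under every alternative run, and 0 of those past the threshold changed sign. The causes of the changes were not tested. The numbers of knockout and WT embryos do not pair them (correlations of deviations from -0.22 to 0.40 in G9a-Glp ExE, for example). With this number as a replicate block, maternal and paternal Gnas reads passed in G9a-Glp ExE (0.78 and 0.97), the maternal rise in Rnf2 ExE missed (1.23), and signs changed for values near 0: paternal Gnas in Dnmt1 ExE 0.38, total Gnas in Eed epiblast -0.040, Nespas in Rnf2 epiblast 0.32 (total) and 0.24 (maternal). In the fits of a difference between tissues the block was instead the embryo, which pairs its own tissues. There the difference for the Gnas ratio in Eed became -0.088 and that for total Nespas in Rnf2 -0.50. Neither block changed any other call. For the Nespas parental term the block by number could not be estimated, because 1 embryo had no Nespas read. With total reads as the only scaling, paternal Gnas was 0.23 in Dnmt1 ExE and passed in G9a-Glp ExE (0.84), and maternal Gnas in Eed epiblast was 0.11. DESeq2's size factors gave -0.00056 and DESeq2 -0.0023 for total Gnas in Eed epiblast. Chosen after seeing the data, leaving out libraries that do not bear out their label gave 0.14 for paternal Gnas in Dnmt1 ExE and 1.17 for maternal Gnas in Rnf2 ExE. Unadjusted permutation tests passed for the Gnas share in Dnmt1 epiblast (-9.23 points) and Rnf2 ExE (-9.39) and, added later, for Nespas in Dnmt1 epiblast (-42.2).

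Leaving out each library in turn, log2 values ran as follows where a call or sign changed. In Dnmt1 epiblast Gnas was -1.10 to -0.83 (total), -1.33 to -1.07 (maternal) and -0.71 to -0.42 (paternal), and in Dnmt1 ExE -0.25 to 0.21 (paternal). In G9a-Glp ExE it was 0.56 to 0.88 (total), 0.50 to 0.83 (maternal) and 0.65 to 0.98 (paternal), and in G9a-Glp epiblast 0.22 to 0.41 (maternal). Nespas in G9a-Glp epiblast was 0.49 to 1.19 (total) and 0.54 to 1.24 (maternal). In Eed epiblast Gnas was -0.058 to 0.078 (total) and -0.15 to 0.038 (maternal), and maternal Nespas -0.028 to 0.66. In Rnf2 epiblast Nespas was -0.59 to 0.41 (ratio), -0.30 to 0.41 (total) and -0.33 to 0.38 (maternal), and paternal Gnas -0.11 to 0.0044. Gnas between the crosses in ExE was 0.64 to 1.16. Depth limits the Nespas row in ExE, where 15 WT reads in all set its allelic share.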

Other observations

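Gm30189, the row that lies wholly inside Gnas, was chosen after its values were seen. In WT epiblast its reads followed the BDF1 strain and not the parent, with 38 of 44 reads maternal in BDF1xCAST (86.4%) and 6 of 67 maternal in CASTxBDF1 (8.96%). In Rnf2 ExE it had 53 reads in 5 of 5 libraries (mean 1.74 CPM), of which 50 were maternal. WT BDF1xCAST ExE held 7 reads in 4 of 7 libraries (mean 0.344 CPM), all maternal. Eed ExE held 32 reads in 7 of 10 libraries (mean 1.03 CPM), of which 24 were maternal, and embryo 8 had 0 of 7. All 5 reads in G9a-Glp ExE and the 1 read in Dnmt1 ExE were maternal. Since these ExE groups and the knockout epiblast groups have a BDF1 mother, parent and strain cannot be told apart in them.

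Pooled over libraries of ExE, the Nespas row held 3 of 5 maternal reads in Dnmt1 (60%, 95% Wilson interval 23.1 to 88.2), 5 of 12 in G9a-Glp (41.7%, 19.3 to 68.0), 1 of 13 in Rnf2 (7.69%, 1.37 to 33.3) and 13 of 29 in Eed (44.8%, 28.4 to 62.5), beside 1 of 15 in the WT of both crosses (6.67%, 1.19 to 29.8). These intervals cover counting error only, and reads of a library are not replicates.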
